A study of Homo sapiens with 10 samples.

Results

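The genes described here were *SETD7*, *AKAP6*, *ATP10D*, *G3BP2*, *PHACTR2*, *ZNF616*, *ZNF252P* and *NHLRC1*. They are 8 of the 19695 genes in the deposited count tables. They were selected on measured values, as genes shown to be bound by TRPS1 in ChIP-seq and raised over control siRNA in both knockdowns, and both properties are given below as descriptions without a test. All samples came from T47D, an established human breast cancer cell line of luminal type. ChIP-seq comprised 2 libraries made with TRPS1 antibodies and 2 input libraries, deposited as a single peak list. RNA-seq comprised 2 libraries of each siRNA group, control, *TRPS1* and *CHD4*, collected 72 h after transfection. For the *CHD4* silencing the labels name an siRNA while the RNA-seq methods name an shRNA. The sources do not state whether replicates came from separate cultures, so the p-values measure only the spread between these libraries.

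TRPS1 is an atypical GATA-type zinc finger protein that represses transcription at sequences with a GATA core. CHD4 is the ATP-dependent remodelling subunit of the NuRD complex, which combines nucleosome remodelling with histone deacetylation and is brought to chromatin by sequence-specific repressors. The 8 genes belong to no common pathway. SETD7 is a lysine methyltransferase that monomethylates histone H3 and other proteins, ZNF616 is a C2H2 zinc finger protein of the gene cluster at 19q13.41, and *ZNF252P* is a transcribed zinc finger pseudogene at 8q24.3. AKAP6 anchors protein kinase A at the nuclear envelope, PHACTR2 binds protein phosphatase 1 and actin, and G3BP2 is an RNA-binding protein of stress granules. ATP10D is a P4-ATPase that moves lipids across membranes, and NHLRC1, also called malin, is an E3 ubiquitin ligase that acts with laforin in glycogen metabolism.

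TRPS1 peaks lay over or next to a start site in 5 of the 8 genes and outside the gene in the other three. Positions are in hg38, and genes and start sites are those of RefSeq on GRCh38.p14. The list gives no height, so the peaks cannot be ranked, and exons and introns were not assigned here. A total of 9 peaks was found, the nearest peak or peaks of each gene. Their median width was 273 bp, against 288 bp over all 1844 peaks.

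The peak of *ZNF616*, chr19:52139734-52140105, overlapped the only listed start of the gene, with its centre 19 bp downstream. The peak of *ATP10D*, chr4:47485040-47485311, overlapped the only listed start of that gene, with its centre 100 bp upstream. *SETD7* had a peak inside the gene at chr4:139555223-139555507, which began 712 bp past the start site. In these 3 genes no other start was listed, so the peak lay at the annotated promoter or just past it.

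*G3BP2* and *PHACTR2* have several listed starts, and each peak overlapped a single one. The peak of *G3BP2*, chr4:75673520-75673746, was centred 38 bp upstream of 1 of 5 starts and 50804 bp from the farthest. The peak of *PHACTR2*, chr6:143677741-143678260, was the widest of the 9 at 520 bp, and was centred 35 bp past the third of 3 starts and 141122 bp from the farthest. The counts are per gene, so transcripts from different starts cannot be told apart.

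The other genes had peaks outside the gene, which were distal for *AKAP6* and *NHLRC1*. *AKAP6* had 2 peaks upstream, chr14:32307839-32308139 and chr14:32311860-32312096, which lay 21159 and 17202 bp from the start. The peak of *NHLRC1*, chr6:18062696-18062968, lay 57472 bp past the end of the gene. A second peak 68178 bp from *NHLRC1* was nearest to *KIF13A*. For *ZNF252P* the nearest peak, on chromosome 8 and 269 bp wide, lay 23925 bp outside the gene, but the antisense RNA *ZNF252P-AS1* was closer to it at 20778 bp, and it fell inside an unnamed RefSeq gene. By nearest gene, therefore, no peak of the list belonged to *ZNF252P*.

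Of the 9 peaks, 5 were TSS proximal, within 5 kb of a start of their gene, and 4 overlapped a start. The peak near *ZNF252P* could not be classed, since no starts were listed for its chromosome. Over the 1749 peaks on chromosomes with listed starts, 31.1% were proximal to a start of any gene and 9.89% overlapped one. No test is given, since the genes were chosen as bound.

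**Figure D1:**
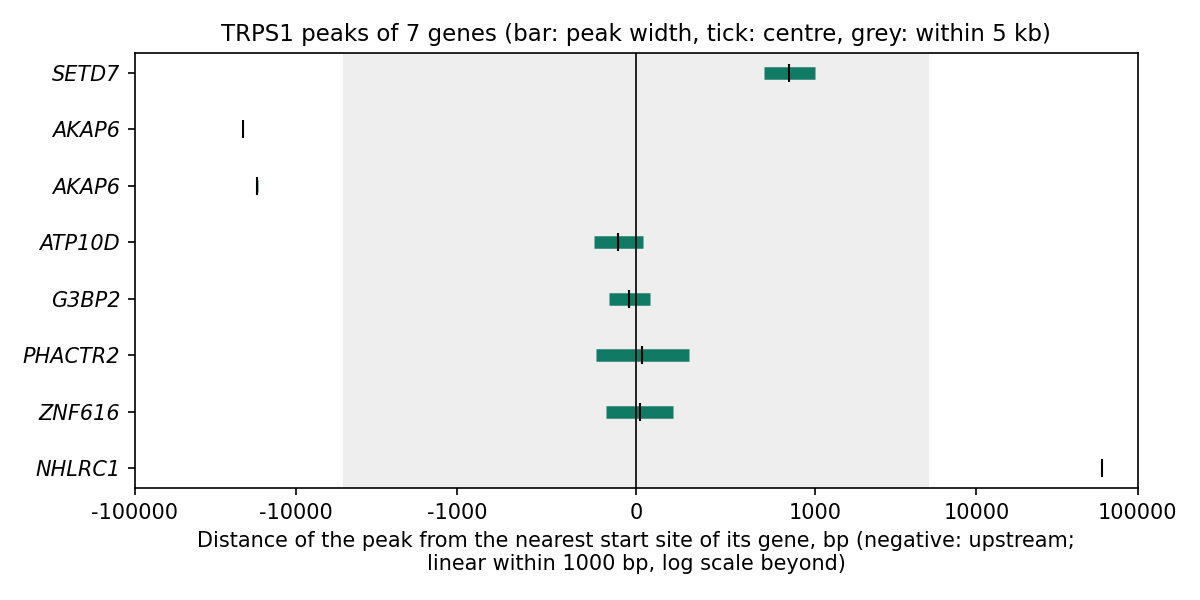
Distance in bp of each TRPS1 peak from the nearest listed start site of its gene, linear within 1000 bp and on a log scale beyond, for the 7 genes with a listed start. Bars span each peak, ticks mark centres and grey marks 5 kb on either side; peaks of 5 genes sit inside the grey band, whereas both peaks of *AKAP6* lie upstream and that of *NHLRC1* downstream of it.

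The 4 RefSeq promoter windows that overlap these peaks are shown because they hold the sequence under the peak at the start site. Each runs from 250 bases before to 50 bases from the start, on the strand of the gene. The windows covered all of the *ATP10D* peak, 88.5% of the *G3BP2* peak, 58.3% of the *ZNF616* peak and 52.7% of the *PHACTR2* peak. Capitals mark the letters TTATCT, which read AGATAA on the other strand. The short GATA elements searched, on both strands, were AGATAA with its variant ending in G, AGATAG, and the same pair beginning with T, which are TGATAA with its variant TGATAG.
G3BP2, chr4:75673546-75673845, minus strand: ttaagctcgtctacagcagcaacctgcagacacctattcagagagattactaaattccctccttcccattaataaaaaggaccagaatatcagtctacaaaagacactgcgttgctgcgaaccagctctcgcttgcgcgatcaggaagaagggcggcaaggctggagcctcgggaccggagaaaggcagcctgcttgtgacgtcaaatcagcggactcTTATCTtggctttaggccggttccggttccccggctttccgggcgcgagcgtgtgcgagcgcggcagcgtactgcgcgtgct
ATP10D, chr4:47485025-47485324, plus strand: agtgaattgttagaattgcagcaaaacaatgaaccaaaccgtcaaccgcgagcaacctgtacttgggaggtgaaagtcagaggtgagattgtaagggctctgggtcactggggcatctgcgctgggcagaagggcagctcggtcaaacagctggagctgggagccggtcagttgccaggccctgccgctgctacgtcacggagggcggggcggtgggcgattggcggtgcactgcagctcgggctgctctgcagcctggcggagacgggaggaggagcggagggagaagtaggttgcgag
PHACTR2, chr6:143677715-143678014, plus strand: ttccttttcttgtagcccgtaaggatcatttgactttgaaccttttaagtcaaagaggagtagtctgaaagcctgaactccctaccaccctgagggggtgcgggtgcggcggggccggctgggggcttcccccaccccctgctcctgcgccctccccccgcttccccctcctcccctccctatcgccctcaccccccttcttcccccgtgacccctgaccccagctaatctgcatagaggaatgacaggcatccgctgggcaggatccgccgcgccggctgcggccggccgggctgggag
ZNF616, chr19:52139889-52140188, minus strand: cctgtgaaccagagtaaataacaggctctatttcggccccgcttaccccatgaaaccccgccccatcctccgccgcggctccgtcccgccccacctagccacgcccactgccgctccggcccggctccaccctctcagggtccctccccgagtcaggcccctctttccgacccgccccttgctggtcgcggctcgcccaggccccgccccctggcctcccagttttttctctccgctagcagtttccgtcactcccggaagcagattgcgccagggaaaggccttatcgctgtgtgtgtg

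A short GATA element was thus present in 1 of the 4 windows under a peak. In *G3BP2* it began 32 bases before the start, 9 bp from the centre of the peak. Among all 35116 RefSeq promoter windows 25.0% held such an element, and among the 369 windows overlapping any TRPS1 peak 46.1% did. Over all 13 windows of the 7 genes that have one, 3 held an element. The others were in *AKAP6*, AGATAA beginning 222 bases before the start, and in the second window of *PHACTR2*, chr6:143607930-143608229, with TGATAG beginning 96 bases before the start and TGATAA past it. Neither of these windows overlapped a peak. The longer AGATAAGG was in 0 of the 13 windows, 0.829% of all windows and 2.71% of those overlapping a peak. Letters outside the windows were not searched, and a missing match says nothing about binding.

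For *SETD7*, *AKAP6* and *NHLRC1*, whose peaks no promoter window covers, the primers designed by the study to measure TRPS1 at these genes by ChIP-qPCR are shown in lower case, as the designed sequences for binding at these genes. None occurred in a RefSeq promoter window, and their positions were not determined here.
SETD7 forward: ccgagattgctgggtgacac
SETD7 reverse: gggaggggcggtagaagaga
AKAP6 forward: gccacaggaagtttcaagat
AKAP6 reverse: gggagtgccactgaaagaaa
NHLRC1 forward: caaagatgagaagccgtgat
NHLRC1 reverse: gccccccaataaaaaagaat

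The siRNA sequences of the study are shown because they define the silenced groups. A pair is listed for each target, and the sources do not state which of each pair was used for RNA-seq.
Control siRNA: uucuccgaacgugucacgu
TRPS1 siRNA#1: gucccuugaauguaguaaa
TRPS1 siRNA#2: gcacacagcugcuacaaau
CHD4 siRNA#1: cgggaguucaguaccaaua
CHD4 siRNA#2: gggcugcuuacuugaacau

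The RNA-seq libraries held 10333138 to 14668358 counts, and 3 counts, taken as the limit of detection, corresponded to 0.197 to 0.288 CPM (counts scaled to library size) after TMM normalization. The *TRPS1* transcript was at 1445 and 2269 CPM with control siRNA and at 1166 and 722 CPM with *TRPS1* siRNA, and *CHD4* was at 300.3 and 285 CPM with control siRNA and at 95.8 and 54.3 CPM with *CHD4* siRNA. Both targets were lower in both silenced libraries than in both controls. Control siRNA replicate 1 stood apart: its log2 CPM correlated with those of the other libraries at r = 0.858 to 0.880, whereas the highest correlation among the others was 0.976. All 9 luminal markers were above 2 CPM in every library, but their summed level was 11447 to 14711 CPM with control siRNA, 6227 to 6247 with *TRPS1* siRNA and 5317 to 7074 with *CHD4* siRNA. The keratins *KRT8*, *KRT18* and *KRT19* and the estrogen receptor gene *ESR1* were lower in all silenced libraries than in both controls. *KRT8* was at 5196 and 3336 CPM with control siRNA and at 1075 to 1232 in the silenced libraries. *ESR1* was at 268 and 397 CPM with control siRNA and at 187 to 247 in the silenced libraries. Of the other luminal markers, *EPCAM*, *FOXA1*, *PGR* and *CDH1* overlapped the controls in both knockdowns. *GATA3*, at 899 and 430 CPM with control siRNA, overlapped them with *TRPS1* siRNA, at 532 and 418. With *CHD4* siRNA both *GATA3* libraries, at 426 and 292 CPM, lay below both controls. Of the basal and mesenchymal, leukocyte and endothelial markers 0 were above 2 CPM in every library, and of 3 fibroblast markers 1 was, *COL1A1* at 59.2 to 156 CPM, while *COL1A2* and *COL3A1* were at or near 0. The mesenchymal marker *VIM* was at 17.3 CPM in *TRPS1* siRNA replicate 1 and at most 2.87 elsewhere, and the macrophage marker *CD68* was higher in all silenced libraries than in both controls. The part of these shifts in the results below was not tested. In such bulk samples fewer cells with a transcript and less RNA per cell cannot be told apart.

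All 8 genes were higher in every silenced library than in both control libraries. The log2 fold change over control siRNA ranged from 1.16 to 1.96 with *TRPS1* siRNA (median 1.44) and from 0.99 to 1.86 with *CHD4* siRNA (median 1.23). Over all genes tested the medians were -0.02 and -0.02. Both libraries lay above both controls in 22.8% of all genes tested with *TRPS1* siRNA and in 20.1% with *CHD4* siRNA. These contrasts chose the genes, and both use the same control libraries. Levels are TMM-normalized CPM, which are not corrected for transcript length and are therefore compared within a gene only.

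Among the chromatin and zinc finger genes, *SETD7* was at 52.4 and 83.7 CPM with control siRNA, 173 and 165 with *TRPS1* siRNA and 137 and 131 with *CHD4* siRNA. The 3 groups did not overlap, and the *TRPS1* siRNA libraries were highest. Among all genes tested, both *CHD4* siRNA libraries lay below both *TRPS1* siRNA libraries in 23.8% and above them in 23.3%. A lack of overlap between the silenced groups is therefore common. The log2 fold changes over control were 1.32 (standard error 0.37) and 0.99 (0.40).

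*ZNF616* was at 11.1 and 25.0 CPM with control siRNA, 65.2 and 74.9 with *TRPS1* siRNA and 58.6 and 60.3 with *CHD4* siRNA. It had the largest rise of the 8 with *TRPS1* siRNA, a log2 fold change of 1.96 (standard error 0.48), and one of 1.73 (0.49) with *CHD4* siRNA. The control libraries differed from each other by 2.26-fold. Zinc finger genes of this cluster resemble each other in sequence, and how reads shared between such genes were counted is not given in the sources used here, so its level is uncertain.

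*ZNF252P* was at 15.8 and 38.6 CPM with control siRNA, 78.4 and 81.8 with *TRPS1* siRNA and 92.3 and 91.4 with *CHD4* siRNA. Here the *CHD4* siRNA libraries were highest, above both *TRPS1* siRNA libraries as in 23.3% of all genes, and again the groups did not overlap. Log2 fold changes were 1.56 (standard error 0.49) and 1.76 (0.50). The antisense RNA *ZNF252P-AS1* and the pseudogene *TMED10P1* overlap this gene in RefSeq and were counted too, and since the strand setting of the counting is not given in the sources used here, reads from overlapping genes cannot be told apart. *ZNF252P-AS1* had 19 to 49 counts per library, against 216 to 1246 for *ZNF252P*. *TMED10P1* had log2 fold changes of 1.12 (standard error 0.70) and 1.22 (0.70), in the direction of *ZNF252P*, and did not pass the study's threshold.

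Among the kinase and phosphatase scaffolds, *AKAP6* was at 13.5 and 18.7 CPM with control siRNA, 35.5 and 36.6 with *TRPS1* siRNA and 41.7 and 35.3 with *CHD4* siRNA. The silenced libraries of both kinds overlapped each other and were all above the controls. The log2 fold changes were 1.17 (standard error 0.38) and 1.27 (0.41).

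*PHACTR2* was at 20.3 and 29.7 CPM with control siRNA, 90.2 and 84.2 with *TRPS1* siRNA and 51.6 and 55.6 with *CHD4* siRNA. It showed the clearest order of the 8 genes, with *CHD4* siRNA between control and *TRPS1* siRNA and no overlap. In 23.8% of all genes, too, both *CHD4* siRNA libraries lay below both *TRPS1* siRNA libraries. The log2 fold changes over control were 1.81 (standard error 0.37) and 1.11 (0.41). The antisense RNA *PHACTR2-AS1* overlaps the gene.

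*G3BP2*, which codes for a scaffold of stress granules, was at 67.3 and 106 CPM with control siRNA, 167 and 219 with *TRPS1* siRNA and 147 and 196 with *CHD4* siRNA. The silenced groups overlapped each other. Log2 fold changes were 1.16 (standard error 0.38) and 0.99 (0.41).

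*ATP10D*, the lipid flippase, was at 4.10 and 10.2 CPM with control siRNA, 15.5 and 17.3 with *TRPS1* siRNA and 16.99 and 15.6 with *CHD4* siRNA. The control libraries differed by 2.48-fold, the widest gap of the 8 genes. Log2 fold changes were 1.20 (standard error 0.55) and 1.20 (0.56).

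*NHLRC1* was the lowest in counts, with 24 to 103 counts per library. It was at 1.76 and 2.34 CPM with control siRNA, 9.11 and 3.94 with *TRPS1* siRNA and 9.61 and 5.29 with *CHD4* siRNA. In both knockdowns replicate 1 was the higher library, and the log2 fold changes of 1.66 (standard error 0.67) and 1.86 (0.66) had the widest errors of the 8. Without replicate 1 of the silenced group they were 0.96 and 1.39.

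**Figure D2:**
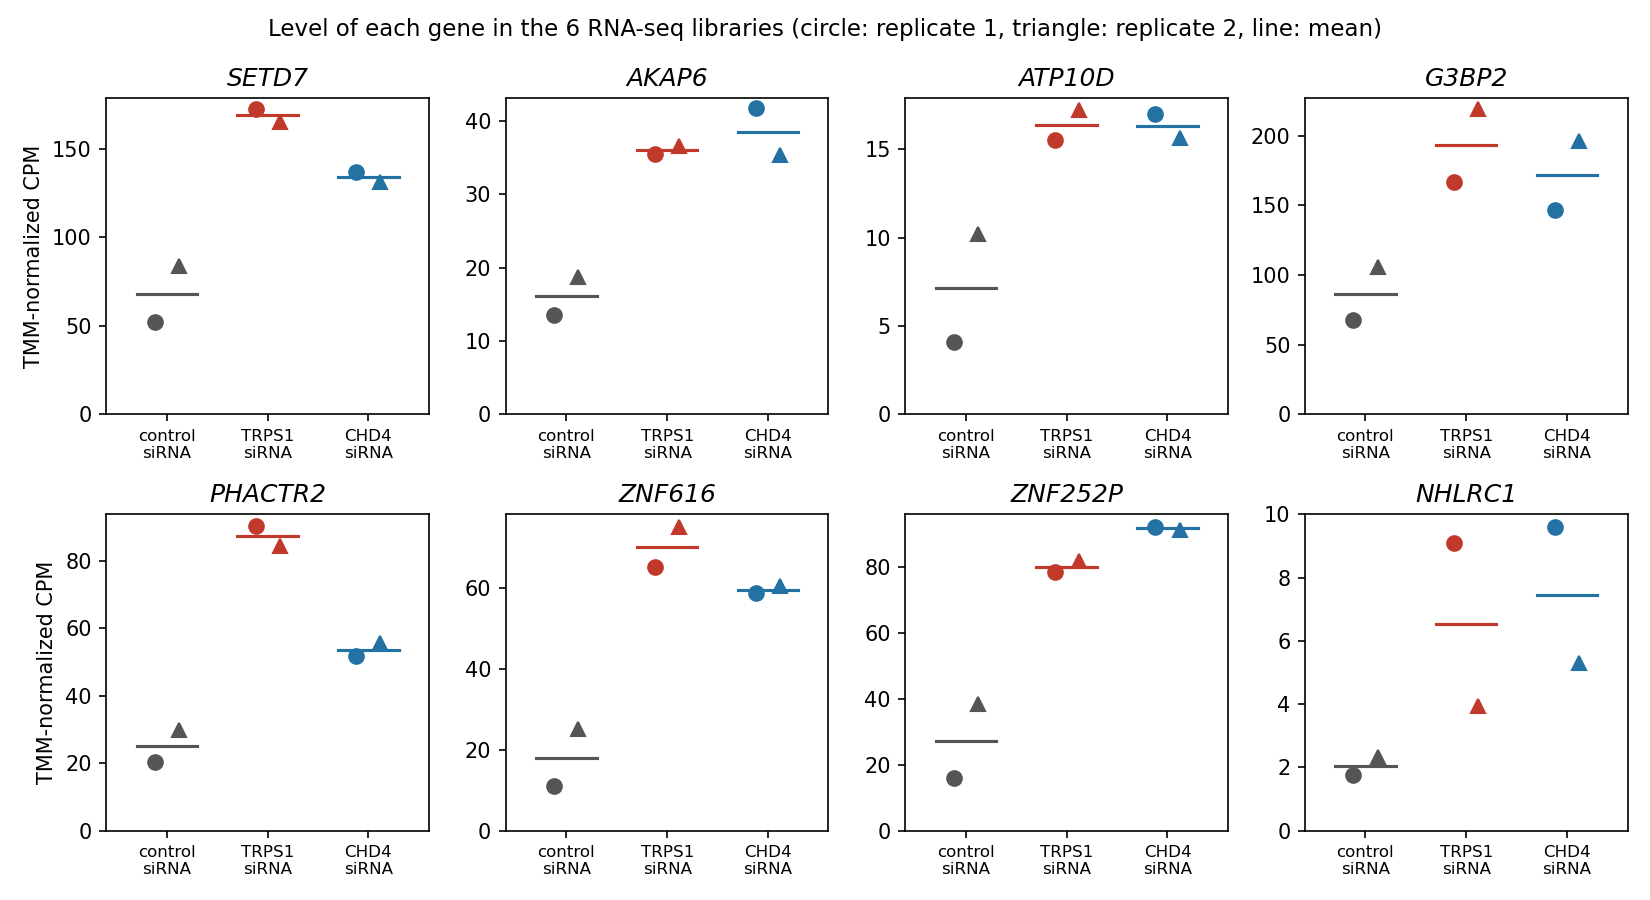
TMM-normalized CPM of each of the 8 genes in the 6 RNA-seq libraries, with a panel and a y axis from 0 for each gene. Circles are replicate 1, triangles replicate 2 and lines the mean of 2 libraries; all silenced libraries sit above both controls, and in 8 of 8 genes control replicate 1 is the lowest library.

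At the threshold of the study, a fold change over 2 with an unadjusted p under 0.05, 7 of the 8 genes were past it with *TRPS1* siRNA and 5 with *CHD4* siRNA. Of all genes tested 2.7% were called higher with *TRPS1* siRNA and 2.6% with *CHD4* siRNA, and since the rule used these contrasts nothing is read from the difference. Just outside the fold limit with *CHD4* siRNA were *SETD7* at 1.98-fold and *G3BP2* at 1.99-fold, and just inside it was *PHACTR2* at 2.15-fold. *ATP10D* was past the fold limit in both knockdowns, but not past the limit on p.

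The control libraries did not give the same picture. Every one of the 8 genes was lower in control replicate 1 than in control replicate 2, by 1.33-fold (*NHLRC1*) to 2.48-fold (*ATP10D*), with a median log2 difference of -0.66. Among 13002 genes 50.1% were lower in replicate 1. The rule chose genes raised over these same control libraries, so a low control library favours selection. That all 8 genes were lower is therefore a description, and nothing is read from its contrast with that share. *ZNF252P* differed by 2.44-fold between the controls, *SETD7* by 1.60-fold, *G3BP2* by 1.57-fold, *PHACTR2* by 1.46-fold and *AKAP6* by 1.39-fold.

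Against control replicate 1, both libraries of each knockdown were over 2-fold higher in 8 of 8 genes. The share of all genes that did so was 17.3% with *TRPS1* siRNA and 16.2% with *CHD4* siRNA. Against control replicate 2, both libraries were higher in 8 of 8 genes with either knockdown, for which the shares of all genes were 41.1% and 37.9%, and over 2-fold higher in 3 of 8 with each, for which they were 4.31% and 4.7%.

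The genes over 2-fold above control replicate 2 in both *TRPS1* siRNA libraries were *PHACTR2*, *ZNF616* and *ZNF252P*, and in both *CHD4* siRNA libraries *ZNF616*, *ZNF252P* and *NHLRC1*. *ZNF616* was 2.61-fold and 3.001-fold above it with *TRPS1* siRNA and 2.35-fold and 2.42-fold with *CHD4* siRNA. *ZNF252P* was 2.03-fold and 2.12-fold above it with *TRPS1* siRNA and 2.39-fold and 2.37-fold with *CHD4* siRNA. These were the only genes of the 8 past this mark in both knockdowns.

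*PHACTR2* was 3.04-fold and 2.83-fold above control replicate 2 with *TRPS1* siRNA, and 1.74-fold and 1.87-fold with *CHD4* siRNA. *ATP10D* was 1.53-fold to 1.69-fold above it over the 4 silenced libraries, and *SETD7* 1.57-fold to 2.06-fold. The smallest of all ratios was 1.39-fold, for *G3BP2* in *CHD4* siRNA replicate 1. Over the 8 genes the median log2 difference from control replicate 2 was 1.03 with *TRPS1* siRNA and 0.95 with *CHD4* siRNA, and that from control replicate 1 was 1.95 and 1.75.

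In fits without control replicate 1, the log2 fold changes with *TRPS1* siRNA were 1.56 for *PHACTR2*, 1.496 for *ZNF616*, 1.06 for *ZNF252P*, 1.02 for *SETD7*, 0.95 for *AKAP6*, 0.87 for *G3BP2*, 0.70 for *ATP10D* and 1.46 for *NHLRC1*. With *CHD4* siRNA they were 1.27 for *ZNF616*, 1.27 for *ZNF252P*, 1.06 for *AKAP6*, 0.87 for *PHACTR2*, 0.71 for *G3BP2*, 0.70 for *SETD7*, 0.70 for *ATP10D* and 1.68 for *NHLRC1*. All were above 0, a direction that the choice of the genes favours. Without it, 5 of the 8 genes were past the threshold with *TRPS1* siRNA and 4 with *CHD4* siRNA, while 5.71% and 5.68% of all genes tested were called higher. The remaining control is then a lone library, assumed to vary like the silenced ones.

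**Figure D3:**
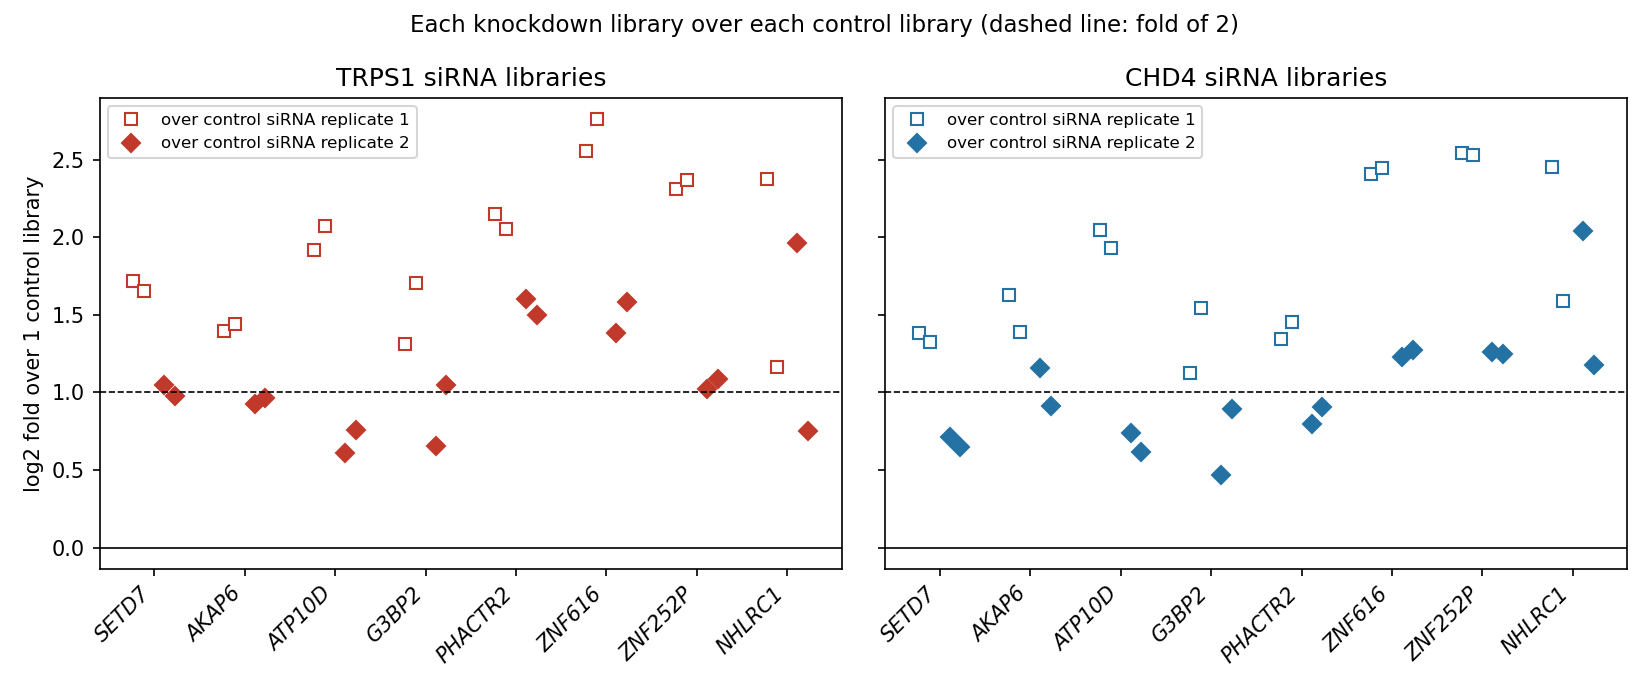
Log2 fold of each silenced library over each control library for the 8 genes, with *TRPS1* siRNA on the left and *CHD4* siRNA on the right. Open squares are ratios to control replicate 1 and filled diamonds ratios to control replicate 2; all squares lie above the dashed line at a fold of 2, whereas the diamonds of only 3 genes per panel lie wholly above it.

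Gene length moved with this difference between the controls across the tested genes. RefSeq gene spans had a median of 72.4 kb for the 8 genes and 29.2 kb for the 12788 tested genes with a span, and 5 of the 8 genes exceeded 50 kb, against 34.2% of these tested genes. Across tested genes longer than 50 kb, control replicate 1 minus control replicate 2 had a median of -0.36 log2 units, and across shorter genes a median of 0.24. *AKAP6* was the longest of the 8 with 508387 bp and *NHLRC1* the shortest with 2238 bp, and both were lower in control replicate 1. Since the rule used the same controls, the spans of the 8 genes are a description too. The part of gene length in the rise over control was not tested.

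Both knockdowns were then set directly against each other, which asks whether the genes stood at different levels in the 2 knockdowns. The control libraries do not enter this comparison, and the rule did not use it. The rule did ask for a rise in both silenced groups, which favours genes at like levels in both. A small difference is therefore not read as a result. By edgeR's quasi-likelihood test 0 of the 8 genes differed at a Benjamini-Hochberg adjusted p under 0.05, and of all 13143 genes tested 0% did. At an unadjusted p under 0.05 there were 2023 genes (15.4%), of which *PHACTR2* was the only one of the 8. The likelihood ratio test gave 570 genes and DESeq2 456 at an adjusted p under 0.05, so the count depends on the tool. It also depends on the replicate numbers, which the reported test does not use. With these fitted as a block, the quasi-likelihood test gave 3372 genes at that limit, *PHACTR2* and *SETD7* among them.

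*PHACTR2* differed most. Its level with *CHD4* siRNA was 0.618 times that with *TRPS1* siRNA, a log2 difference of -0.69 (standard error 0.15, 95% interval -1.06 to -0.33). The unadjusted p of 0.00348 became an adjusted p of 0.136 by edgeR's quasi-likelihood test, which misses the threshold, and an adjusted p of 0.0460 by the likelihood ratio test and of 0.0399 by DESeq2. With the replicate block the quasi-likelihood test gave an adjusted p of 4.4161e-07. Both *CHD4* siRNA libraries were below both *TRPS1* siRNA libraries, as in 23.8% of all genes. Leaving out each library in turn gave log2 differences of -0.73 to -0.65.

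*SETD7* was lower with *CHD4* siRNA by a log2 difference of -0.32 (standard error 0.14, 95% interval -0.66 to 0.01, edgeR adjusted p = 0.333), and its libraries did not overlap. *ZNF616* also lay lower in both *CHD4* siRNA libraries, with a difference of -0.23 (95% interval -0.62 to 0.16, edgeR adjusted p = 0.549). *ZNF252P* was the only gene of the 8 higher in both *CHD4* siRNA libraries, as were 23.3% of all genes, with a difference of 0.20 (95% interval -0.14 to 0.54, edgeR adjusted p = 0.547). Without the replicate block none of these 3 differences passed the quasi-likelihood test, whereas with it *SETD7* had an adjusted p of 0.0286. The interval of each, from the fit without the block, leaves out a fold of 2 in either direction.

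For the other genes the libraries overlapped. *AKAP6* had a log2 difference of 0.10 (95% interval -0.32 to 0.52, edgeR adjusted p = 0.832), *G3BP2* one of -0.17 (-0.69 to 0.36, adjusted p = 0.776) and *ATP10D* one of -0.00 (-0.49 to 0.49, adjusted p = 0.998). *NHLRC1* had a difference of 0.22 with an interval from -0.996 to 1.43 (edgeR adjusted p = 0.882), so these libraries leave its level loosely set, in the upward direction beyond a fold of 2. The median over the 8 genes was -0.08, and over all genes tested it was -0.00.

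**Figure D4:**
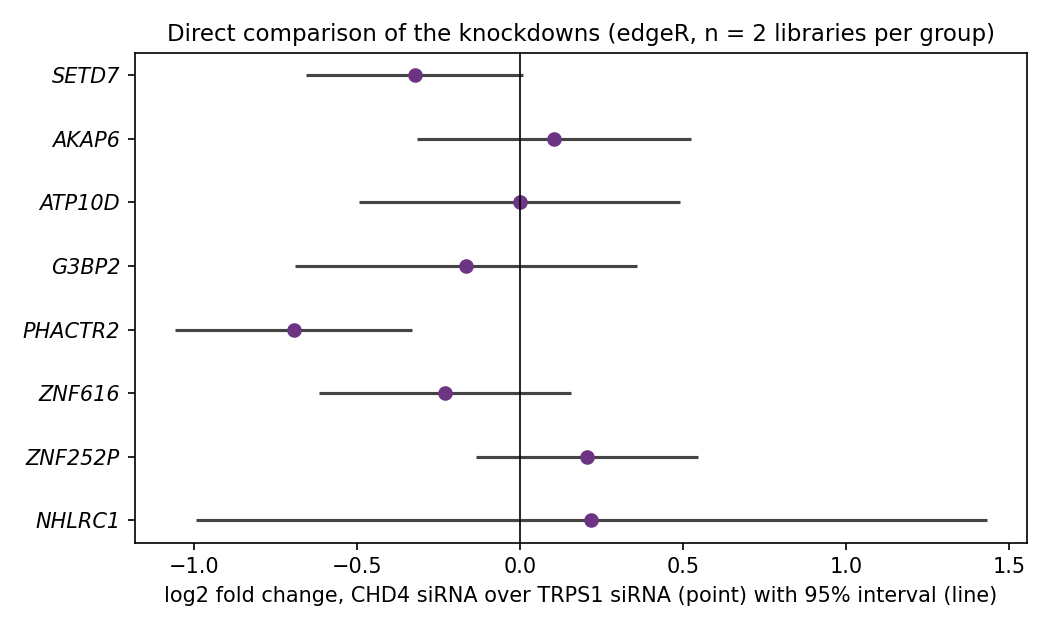
Log2 fold change of *CHD4* siRNA over *TRPS1* siRNA for the 8 genes, with points for the estimate and lines for the 95% interval, from edgeR with 2 libraries per group. The interval of *PHACTR2*, -1.06 to -0.33, is the only one of the 8 that leaves out 0 before adjustment over all genes.

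Genes of the same families or processes were examined in lists, to see whether relatives of the 8 genes moved too. In the knockdown contrasts no gene of any list passed an adjusted p under 0.05, as was the case for all genes tested by edgeR's quasi-likelihood test. At an unadjusted p under 0.05 there were 902 genes (6.98%) with *TRPS1* siRNA and 769 (5.95%) with *CHD4* siRNA, and at an adjusted p under 0.05 the likelihood ratio test gave 34 and 58 and DESeq2 39 and 50. Calls in the lists are therefore at the threshold of the study, which called 3.17% of all genes lower with *TRPS1* siRNA and 2.85% with *CHD4* siRNA, beside the shares called higher given above. All of them share the control libraries with the values of the 8 genes.

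Of 30 SET-domain lysine methyltransferases, relatives of SETD7, 0 rose with either knockdown, 2 fell with *TRPS1* siRNA and 1 with *CHD4* siRNA. *SUV39H1*, which trimethylates lysine 9 of histone H3, was at 68.4 and 43.6 CPM with control siRNA, 14.0 and 29.1 with *TRPS1* siRNA and 12.5 and 26.6 with *CHD4* siRNA, with log2 fold changes of -1.37 and -1.51. *KMT5C*, which methylates lysine 20 of histone H4, fell with *TRPS1* siRNA (-1.36), but its controls, at 53.9 and 20.5 CPM, differed more than its second control did from the silenced libraries. *KMT5A* had log2 fold changes of -0.93 and -0.91, short of the fold limit. The list median was -0.03 and -0.06.

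Of 17 A-kinase anchoring proteins and protein kinase A subunits, 0 passed with *TRPS1* siRNA. With *CHD4* siRNA, 1 fell, *PRKACA*, the catalytic subunit alpha of protein kinase A, with 99.6 and 50.8 CPM in the controls, 38.7 and 46.7 with *TRPS1* siRNA and 21.5 and 19.7 with *CHD4* siRNA. Its log2 fold change was -1.86, opposite in sign to that of *AKAP6*. *AKAP13* had 0.23 with *TRPS1* siRNA and 0.83 with *CHD4* siRNA. In the direct comparison *PRKACA* (-1.05) and *AKAP7* (-1.77) were lower with *CHD4* siRNA past the study's threshold, which called 1.56% of all genes lower, with edgeR adjusted p-values of 0.104 and 0.233. *AKAP7* rested on 7 and 29 counts in the *CHD4* siRNA libraries.

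Of 7 members of the PHACTR family and protein phosphatase 1, 0 passed with *TRPS1* siRNA and 1 fell with *CHD4* siRNA. This was *PHACTR1*, a paralog of *PHACTR2*, at 66.5 and 53.9 CPM with control siRNA, 99.0 and 71.4 with *TRPS1* siRNA and 33.7 and 20.9 with *CHD4* siRNA. Its log2 fold change was 0.50 with *TRPS1* siRNA and -1.13 with *CHD4* siRNA. The direct difference was -1.63 (standard error 0.29, edgeR adjusted p = 0.104), of the same sign as that of *PHACTR2*. *PPP1CA*, a catalytic subunit of protein phosphatase 1, had -0.87 and -0.83.

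Of 13 genes of the flippase list, which holds P4-ATPases and their TMEM30 subunits, 1 rose with *TRPS1* siRNA and 0 with *CHD4* siRNA. The gene was no P4-ATPase but *TMEM30A*, the subunit that most P4-ATPases need to leave the endoplasmic reticulum, at 38.1 and 139 CPM with control siRNA, 246 and 239.8 with *TRPS1* siRNA and 212 and 213 with *CHD4* siRNA. Its log2 fold changes were 1.46 and 1.27, and its control libraries differed in the same direction as those of *ATP10D*. *ATP8A1* had 0.80 and 1.19.

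Of 17 stress granule genes, 0 passed with either knockdown. *G3BP1*, the paralog of *G3BP2*, was at 131 and 232 CPM with control siRNA, 182 and 193 with *TRPS1* siRNA and 214 and 235 with *CHD4* siRNA. Its libraries overlapped those of the control, unlike those of *G3BP2*. *FXR1* had log2 fold changes of 0.59 and 0.41, and *USP10* of -0.66 and -0.42.

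Of 14 glycogen genes, 2 rose with *TRPS1* siRNA and 1 with *CHD4* siRNA. *PPP1R3C*, a glycogen-targeting subunit of protein phosphatase 1, was at 4.25 and 6.11 CPM with control siRNA, 15.6 and 27.4 with *TRPS1* siRNA and 24.26 and 12.7 with *CHD4* siRNA. Its log2 fold changes were 2.06 (standard error 0.50) and 1.84 (0.54). *GYG2*, a glycogenin that primes glycogen, had 1.04 with *TRPS1* siRNA and 0.43 with *CHD4* siRNA. *EPM2A*, which codes for laforin, the partner of malin, was at 5.13 and 7.39 CPM with control siRNA, 11.4 and 8.99 with *TRPS1* siRNA and 6.53 and 3.77 with *CHD4* siRNA, and did not pass.

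Most of the zinc finger genes near *ZNF616* also differed between the controls. Of 25 genes of the 19q13.41 list, which also holds *TRIM28*, 4 rose with *TRPS1* siRNA (*ZNF836*, *ZNF83*, *ZNF350* and *ZNF613*) and 3 with *CHD4* siRNA (*ZNF836*, *ZNF28* and *ZNF468*), and 0 fell. The list medians were 0.74 and 0.53. Control replicate 1 was lower than control replicate 2 in 23 of the 25, with a median of -1.09, and over control replicate 2 alone the list medians were 0.43 with *TRPS1* siRNA and 0.01 with *CHD4* siRNA. *ZNF836* was at 7.18 and 13.43 CPM with control siRNA, 28.1 and 32.9 with *TRPS1* siRNA and 19.6 and 28.3 with *CHD4* siRNA, above both controls in all silenced libraries. Of the 6 tested zinc finger and antisense genes of the 8q24.3 list, 0 passed, with *ZNF34* at 0.41 and 0.46 and *ZNF7* at 0.32 and 0.20.

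Genes within 200 kb of the peaks were examined as neighbours. The count tables hold 39 of them besides the 8 genes, of which 34 were tested. With *TRPS1* siRNA 3 rose and 0 fell, where 2.7% of all genes tested were called higher and 3.17% lower. With *CHD4* siRNA 1 rose and 0 fell, where these shares were 2.6% and 2.85%. All of those that rose, *ZNF836*, *ZNF350* and *ZNF613* with *TRPS1* siRNA and *ZNF836* with *CHD4* siRNA, are zinc finger genes near the *ZNF616* peak. *ZNF836* was the nearest to it at 14002 bp, with log2 fold changes of 1.57 (standard error 0.45) and 1.22 (0.50). *ZNF613*, 193113 bp from it, was the nearest counted gene of another TRPS1 peak, to which an unnamed RefSeq gene was nearer still.

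*ZNF350* and *ZNF613* differed between the knockdowns more than *ZNF616* did. *ZNF350* was at 22.1 and 47.1 CPM with control siRNA, 68.9 and 78.4 with *TRPS1* siRNA and 33.7 and 38.4 with *CHD4* siRNA, and *ZNF613* at 14.0 and 17.3, 39.0 and 32.1, and 12.2 and 14.9 CPM in the same order. The direct differences were -1.02 (standard error 0.17) and -1.38 (0.20), with edgeR adjusted p-values of 0.101 and 0.0941. Their levels with *CHD4* siRNA overlapped those of the controls, whereas those of *ZNF616* lay above.

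Near the other peaks 0 of 23 tested neighbours passed in either knockdown contrast. The nearest counted neighbours were *COMMD8* for *ATP10D*, at 21338 bp with log2 fold changes of 1.72 (standard error 1.20) and 1.07 (1.18), and *USO1* for *G3BP2* among tested genes, at 50831 bp with 0.54 and 0.53. *RAB33B*, 78614 bp from the *SETD7* peak, had 0.14 and 0.60, and *ARHGAP5*, 148111 bp from the nearer *AKAP6* peak, had 0.29 and -0.02. *TPMT*, 65343 bp from the *NHLRC1* peak, had -0.07 and -0.48. For *PHACTR2* the nearest tested neighbour was *LTV1* at 165078 bp, with 0.78 and 0.64. *ZNF252P-AS1*, 20778 bp from the peak near *ZNF252P*, had 0.55 and 0.06. *C8orf33*, 25375 bp from that peak, had -0.66 and 0.02, and *TMED10P1*, 27927 bp from it, had 1.12 and 1.22.

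**Figure D5:**
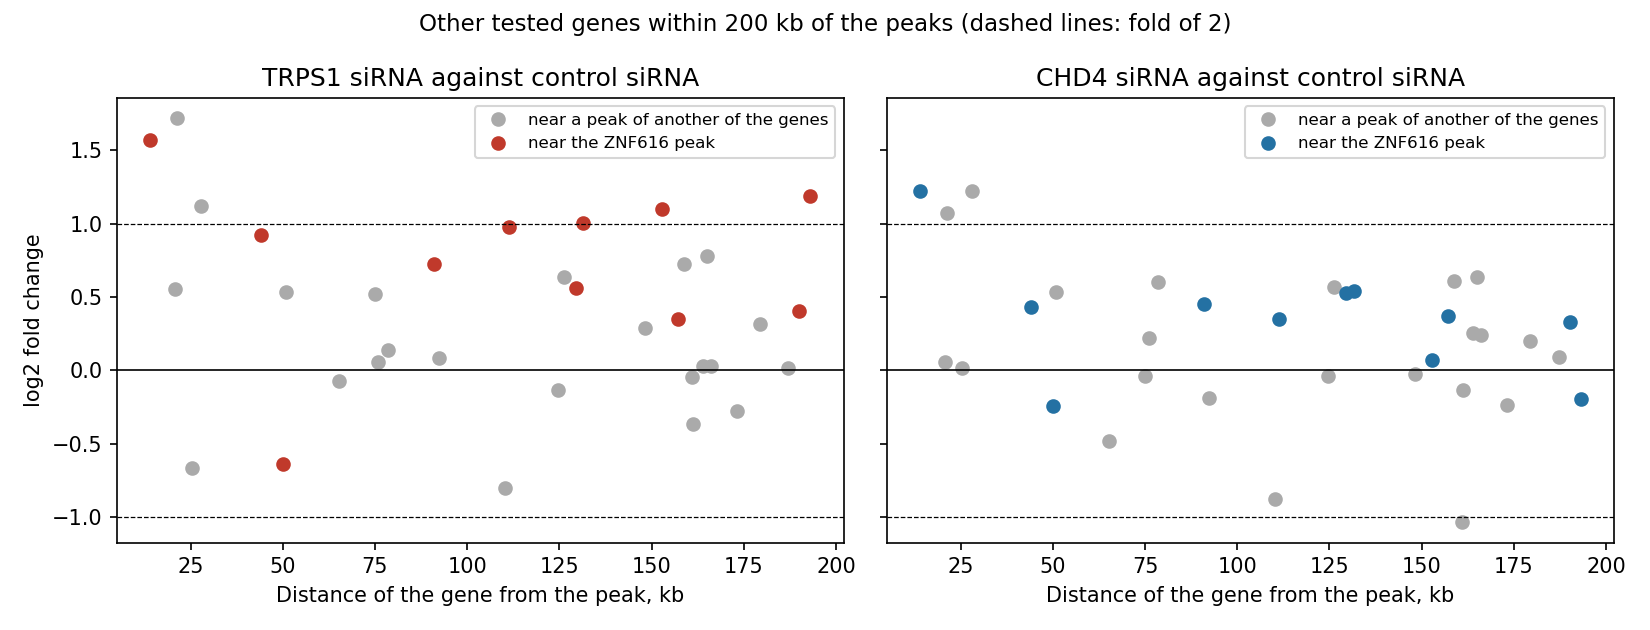
Log2 fold change over control siRNA of the 34 tested neighbours against their distance in kb from the peak of the gene they neighbour, with *TRPS1* siRNA on the left and *CHD4* siRNA on the right. Coloured points lie near the *ZNF616* peak and grey points near the other peaks, and the genes called past the fold of 2 (dashed lines) are 3 coloured points on the left and 1 on the right. Other points beyond the lines missed the limit on p.

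Across the 6 libraries the 8 genes followed one another, *NHLRC1* least closely. Pearson's r of log2 CPM over 28 pairs ranged from 0.664 to 0.987 with a median of 0.938, and 18 pairs exceeded 0.9. Every pair with *NHLRC1* was below 0.9, from 0.664 with *G3BP2* to 0.893 with *AKAP6*. The other pairs below 0.9 all held *PHACTR2*, at 0.873 to 0.889. The points share the libraries and the 2 controls, and the rule fixed the rise that they have in common, so these values are a description. Among 13269 genes, those most like the mean profile of the 8 were *FAM83B* (r = 0.998), *L3MBTL1* (0.995), *MIA3* (0.995), *PIK3C2G* (0.994) and *ZNF490* (0.993). *FAM83B* was at 36.2 and 57.4 CPM with control siRNA, 95.6 and 98.2 with *TRPS1* siRNA and 92.0 and 88.7 with *CHD4* siRNA.

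The gene most like each of the 8 was *TMEM44* for *SETD7*, *NLGN1* for *AKAP6*, *IL16* for *ATP10D*, *ARHGAP42* for *G3BP2*, *AGBL2* for *PHACTR2*, *FAM83B* for *ZNF616*, *HSDL2* for *ZNF252P* and *COL4A6* for *NHLRC1*, with r between 0.995 and 0.999 over 6 libraries. Each is the highest of 13269 genes over 6 points, so an r near 1 is no result. Some were low with control siRNA: *PIK3C2G* at 0 and 0.528 CPM, *ARHGAP42* at 0.366 and 0.830, and *IL16* at 0.733 and 1.43. *NLGN1* was at 3.004 and 4.23 CPM with control siRNA, 7.86 and 8.33 with *TRPS1* siRNA and 8.40 and 7.94 with *CHD4* siRNA, and as in *AKAP6* the libraries of the knockdowns overlapped. *AGBL2* had the stepwise order of *PHACTR2*, with 2.93 and 4.45, 10.7 and 10.0, and 7.09 and 6.98 CPM.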

How the data were processed

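Per the labels, TRPS1 ChIP-seq and its input (2 libraries each) and RNA-seq (2 per group) were made from T47D cells. The submitters' processing notes and the paper's methods name CASAVA 1.8, BWA 0.7.12-r1039, MACS2 2.1.1, STAR, HTSeq 0.9.0 and hg38. The deposited counts are raw reads per gene symbol, counted by the authors without normalization in 2 tables, which share 18262 genes and hold equal control counts. The annotation and strand setting are not given in the sources used here, nor is whether ChIP replicates were pooled. The deposited peak list holds positions only, with no score.

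Each knockdown was compared with control siRNA, and the knockdowns with each other, in edgeR 4.0.16 (R 4.3.3): genes over 2 CPM in at least 2 of 4 libraries, TMM factors, quasi-likelihood F-test, prior count 0.125, Benjamini-Hochberg adjustment over all genes tested. All 8 genes passed this filter in the 3 comparisons. Standard errors were derived from the F statistic (the fold change in log2 units over its square root). The smallest two-sided exact p that 2 libraries per group allow is 0.3333. Levels in all 6 libraries use 1 set of TMM factors, and correlations log2 CPM with a prior count of 2. *NHLRC1* had the lowest counts and the widest standard errors of the 8 genes, and the cause of its wide errors was not tested. Intervals cover these libraries only. Peaks were joined to RefSeq genes (GRCh38.p14), and exact motif letters were searched in RefSeq promoter windows with Python 3.11.15. ChIP primers and siRNAs come from the study's oligonucleotide list. The fits were tested on simulated data.

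The 8 genes and the gene lists were chosen with earlier results of these data known. Named besides them are TRPS1 and CHD4, and in each list genes past the study's threshold and those with the lowest p. Also named are neighbours within 200 kb of a peak that passed or lie nearest, and genes that overlap any of the 8. The genes most alike in profile are named too. *G3BP1*, *EPM2A*, *LTV1* and *C8orf33* were chosen after their values were seen, as were the luminal and other marker values printed. Alternatives were the likelihood ratio test, DESeq2 1.42.0, scaling by RLE or by library size, other filters on low counts, a joint fit of all 6 libraries, a larger prior count (2), a replicate block, omission of single libraries, other limits for proximal peaks, the nearest TSS and AGATAAGG. A nearest gene limited to the count tables, and the likelihood ratio test with over 2 CPM in every library, were added after seeing the data.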

Additional observations from a re-analysis of the deposited data

How the results depend on the processing

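For the 8 genes, each log2 fold change over control siRNA stayed above 0 in every alternative. *NHLRC1* was not tested with over 2 CPM required in every library, in the fits against control. The count of genes past the threshold with *TRPS1* siRNA, 759 as reported, was 1359 without a filter, 1221 with the replicate block and 74 to 4304 with each library left out, and with *CHD4* siRNA, 704 as reported, it was 1403 without a filter and 91 to 3969. Both high values came without control siRNA replicate 2. With library sizes alone the median of all genes moved from -0.02 to 0.10 with *TRPS1* siRNA and from -0.02 to 0.11 with *CHD4* siRNA, and the split of higher against lower calls from 349 and 410 to 490 and 253, and from 336 and 368 to 458 and 222. Of the 8 genes, 2 to 8 were past the threshold with *TRPS1* siRNA when a library was left out, and 2 to 8 with *CHD4* siRNA, of which the low values came without a silenced library. The median log2 fold change with *CHD4* siRNA was then 0.96 to 1.76. In the direct comparison, 0 genes by the reported test became 424 without a filter, 570 by the likelihood ratio test, 456 by DESeq2, 490 by the likelihood ratio test with over 2 CPM in every library, and 0 to 103 with each library left out. *PHACTR2* passed an adjusted p under 0.05 in 4 alternatives, with adjusted p-values over all alternatives from 4.4161e-07 to 0.999984, the highest with all 6 libraries in 1 fit. The direct difference changed sign for *ATP10D* (0.00102 with RLE size factors, 0.000592 with DESeq2, -0.0827 to 0.0974 with a library left out), *G3BP2* (-0.378 to 0.0669), *NHLRC1* (-0.277 to 0.915) and *AKAP6* (-0.0296 to 0.233). The cause of these changes was not tested.

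The replicate numbers give no shared batch in the labels, and replicate 1 of each group departed from its mean with correlations of r = 0.05 (control and *TRPS1* siRNA), 0.01 (control and *CHD4* siRNA) and 0.62 (*TRPS1* and *CHD4* siRNA) across genes. The numbers were not taken as pairs in the reported fits. For the fits against control, the correlations near 0 gave no ground for pairs. Both silenced groups, at 0.62, did share a replicate difference, which the reported direct comparison leaves in its error. With the replicate block, 8 of the 8 genes were past the threshold with *CHD4* siRNA, where 4.51% of all genes were called higher, and the direct comparison gave 3372 genes, with adjusted p-values of 4.4161e-07 for *PHACTR2* and 0.0286 for *SETD7*.

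The proximal peaks numbered 5 at all limits tried. With AGATAAGG alone, 0 promoter windows held an element in place of 3. The list has no score, so a stricter set of peaks was not run, and its depth is unknown.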
